A study of Mus musculus with 9 samples.

Results

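The 41 genes described here encode the carriers and enzymes that bring pyruvate into mitochondria, run the tricarboxylic acid (TCA) cycle, move reducing equivalents through the malate-aspartate shuttle and oxidise fatty acids. They were chosen by name, with earlier results of these data known, and were matched by symbol, 1 identifier each, in a table of 47729 genes. Pyruvate entry holds 6 of them, the TCA cycle 13, the malate-aspartate shuttle 5 and fatty acid oxidation 17. All 41 had a mean value of at least 3 over the 9 libraries and were therefore among the 15623 genes tested.

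The RNA came from synovial fibroblasts, which form the matrix of the joint lining, grown from collagenase-digested paws of wild-type BALB/c mice and sequenced as polyadenylated RNA. Primed cultures came from left paws that had received monosodium urate (MSU) crystals, the crystals that cause gout, on day 0 and again on day 9. Non-primed cultures came from right paws that had received MSU on day 9 only, and naive cultures came from paws with no injection. Each group has 3 libraries, and RNA was taken on day 18, after 5 passages in culture. Paw side coincides with priming, so the effects of side and of a first injection cannot be told apart. Primed and non-primed paws need not come from different mice, and no label ties a library to an animal. The p-values below therefore measure the spread between these libraries, which may be partly technical.

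Pyruvate from glycolysis crosses the inner mitochondrial membrane through a carrier made of Mpc1 and Mpc2 and is then oxidised to acetyl-CoA by pyruvate dehydrogenase or carboxylated to oxaloacetate. Fatty acids enter as carnitine esters and are shortened stepwise by beta-oxidation, which also yields acetyl-CoA for the TCA cycle. The malate-aspartate shuttle carries the reducing equivalents of cytosolic NADH into the matrix, and its aspartate-glutamate carrier exists as a pair of paralogs, Slc25a12 and Slc25a13.

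Values are regularised log2 (rlog) read counts as deposited, so a difference of 1 is a doubling, and rlog pulls the differences of weakly expressed genes towards 0. No raw counts were used, so the depth behind each value is unknown. Differences were tested with limma over all 15623 genes, and a gene was called at a Benjamini-Hochberg adjusted p under 0.05. The naive libraries varied most: the median SD over all tested genes was 0.14 in primed, 0.10 in non-primed and 0.22 in naive cultures. Naive libraries 3 and 2 stood apart from the other libraries on the first and the second principal component, with 38.0% and 30.5% of the variance. Because the fit shares 1 spread over the groups, the standard errors of comparisons with naive cultures may be too small. Those of primed against non-primed cultures may be too large. With these 2 groups fitted alone, 4.76% of tested genes had an unadjusted limma p under 0.05, in place of 1.26%. Among the members it was 4 of 41 in place of 2, and 0 genes were called in either fit.

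Fibroblast markers averaged 14.1 to 14.7 in primed, 14.5 to 14.6 in non-primed and 14.0 to 14.9 in naive libraries. Macrophage markers were also present, at library means of 10.1 to 11.3 in primed, 10.4 to 10.9 in non-primed and 7.87 to 10.3 in naive cultures. All 10 were higher on average in both injected groups than in naive cultures, with 0 of 10 past the threshold. Adipocyte markers averaged 4.27 to 5.07 in primed, 4.22 to 4.39 in non-primed and 4.49 to 6.2 in naive libraries. Naive libraries 1 and 2 were at 6.17 and 6.20, and naive library 3 was at 4.49. Leptin (Lep) was listed at 0 in all 9 libraries and is not part of these means. Proliferation markers averaged 10.08 to 10.26 in primed, 10.10 to 10.78 in non-primed and 8.96 to 10.63 in naive libraries. Naive library 2 was the lowest of all 9, and 0 of these genes were called. Targets of the hypoxia-inducible factor HIF1A moved with the groups. Their library means were 11.33 to 11.35 in primed, 11.21 to 11.30 in non-primed and 10.55 to 10.61 in naive cultures, and 5 of 10 were called higher in non-primed and 4 of 10 in primed than in naive cultures, beside 0.115% and 0.096% of all tested genes. A list of mitochondrial content genes spanned 10.78 to 10.83 in primed, 10.79 to 10.86 in non-primed and 10.62 to 10.85 in naive libraries, with 0 genes called. The part of these marker groups in the results below was not tested. In bulk RNA, fewer cells of a type and less RNA per cell cannot be told apart.

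Of the 41 genes, 1 changed between non-primed and naive cultures. It was Slc25a12, which was lower in non-primed cultures, in a comparison where 0.141% of all tested genes (22 genes) were called and 0.0256% were called lower. An unadjusted p under 0.05 was found for 6 of 41 members there, a share of 14.6% beside 15.4% of all tested genes. None of the 41 was called between primed and naive cultures, where 0.102% of tested genes (16 genes) passed and 0.0064% were called lower, although 10 of 41 had an unadjusted p under 0.05, a share of 24.4% beside 16.9% of all tested genes. None was called between primed and non-primed cultures either, where 0 of 15623 genes passed and 2 of 41 members (4.88%) had an unadjusted p under 0.05 beside 1.26% of all tested genes. A test for any difference among the 3 groups called 0 of 41 members and 0.0704% of all tested genes. The median absolute difference of the 41 genes was 0.15 for primed against naive cultures, beside 0.17 over all tested genes, and 0.09 for non-primed against naive cultures, beside 0.15.

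More members lay above than below naive cultures. The primed mean was higher for 28 of 41 genes, beside 49.8% of all tested genes, with a median difference of 0.10 beside -0.00. The non-primed mean was higher for 29 of 41, beside 51.7%, with a median of 0.04 beside 0.01. These comparisons share the naive libraries. Under the 15 alternatives the primed count was 26 to 31 and the non-primed count 24 to 30. The non-primed count was 24 with quantile normalization, with sample weights or without non-primed library 2, and 25 without naive library 2. All 3 primed libraries lay above all 3 naive libraries for 13 of the 41 genes, and below them for 1, where 8.97% of all tested genes lay above and 8.18% below. For non-primed against naive cultures, 10 of 41 genes did not overlap (24.4%, beside 21.9% of all tested genes), 7 of them above and 3 below. Primed libraries lay wholly above non-primed libraries for 7 members and wholly below for 0, beside 6.31% and 5.25% of all tested genes.

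**Figure D1:**
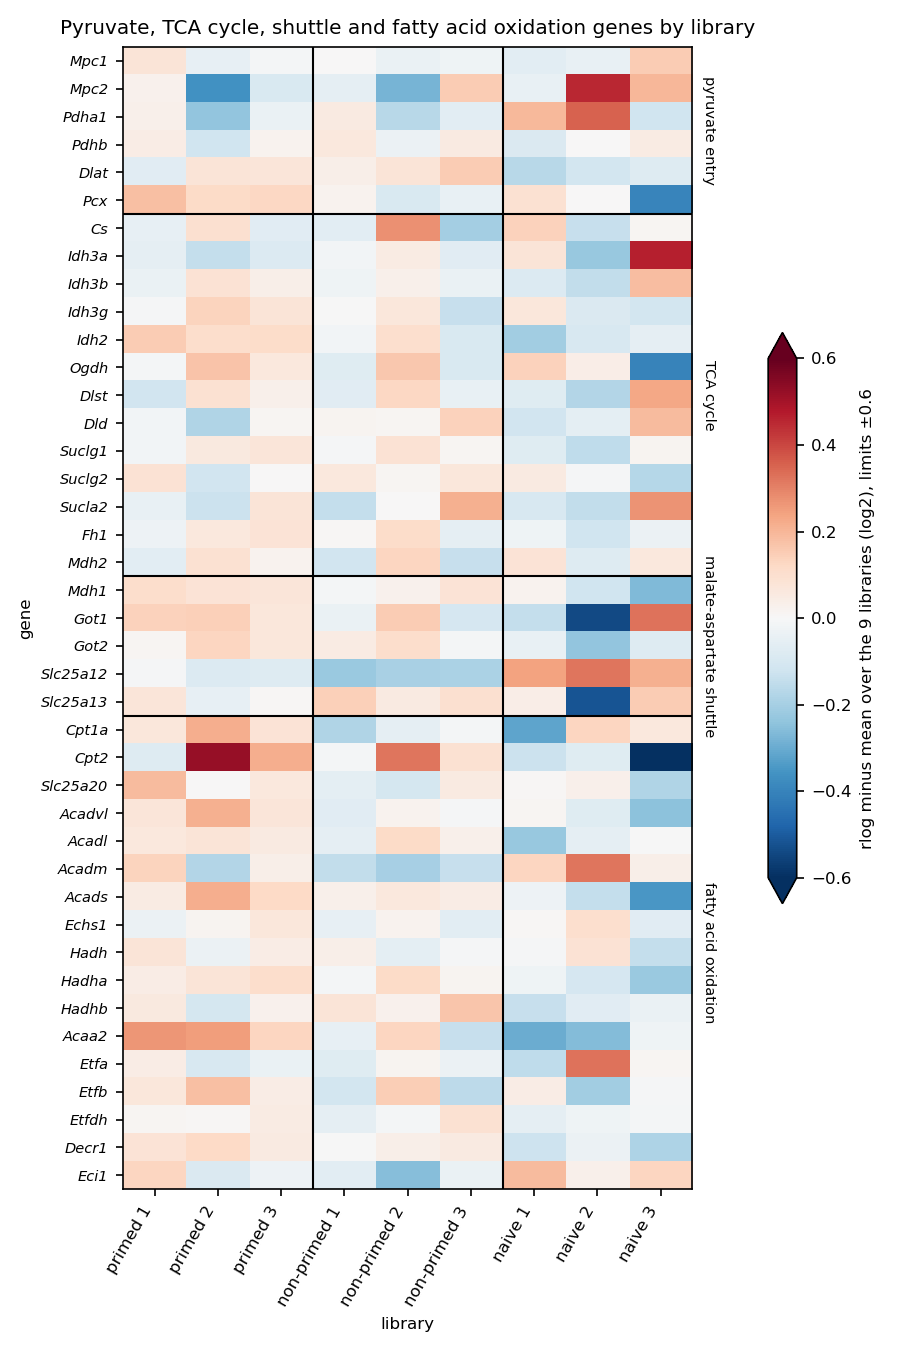
Heat map of the 41 genes (rows, grouped by role) in the 9 libraries (columns, primed, non-primed and naive), coloured by the rlog value minus the gene's mean over the 9 libraries, on a log2 scale. The 6 injected-paw libraries of Slc25a12 are all below its naive ones, and the columns of naive libraries 2 and 3 hold many of the strongest colours.

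The malate-aspartate shuttle held the single called gene. Slc25a12 (ENSMUSG00000027010; GRCm38 chromosome 2, 71271063 to 71367749, minus strand) encodes the calcium-regulated aspartate-glutamate carrier also known as aralar. Its rlog values were 10.86, 10.78 and 10.79 in primed libraries, 10.64, 10.67 and 10.68 in non-primed libraries and 11.11, 11.19 and 11.08 in naive libraries. The groups did not overlap in any pair: naive was highest, primed intermediate and non-primed lowest. Over all tested genes, 181 (1.16%) had no overlap in any pair, in whatever order, and 1 other member, Decr1, was among them with another order.

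Slc25a12 fell by 0.46 in non-primed against naive cultures (limma, SE 0.06, 95% confidence interval -0.60 to -0.32, adjusted p = 0.0483), a difference of -27.3% on the linear scale. Its adjusted p was 0.0782 with the replicate number as a block, and it ranged from 0.0201 to 0.275 when 1 library was left out. The call was lost without primed library 2 or 3 or without any 1 of the non-primed libraries, while the difference stayed between -0.48 and -0.43. With other settings of the fit the adjusted p was 0.0095 to 0.122, under the threshold only with sample weights. Against naive cultures, the primed difference was -0.32 (SE 0.06, limma adjusted p = 0.10), past the threshold only without naive library 3 or with sample weights. Between primed and non-primed cultures the difference was 0.14 (SE 0.06, unadjusted p = 0.0499, limma adjusted p = 1.00). Macrophage markers moved with the groups too, with median differences from naive cultures of 2.01 in primed and 1.85 in non-primed cultures. By library, the macrophage means of naive libraries 1, 2 and 3 were 8.25, 10.31 and 7.87, and their part in the Slc25a12 difference was not tested.

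The paralog Slc25a13 (ENSMUSG00000015112; chromosome 6, 6041218 to 6217173, minus strand), known as citrin, gave 9.13, 9.01 and 9.06 in primed, 9.20, 9.11 and 9.15 in non-primed and 9.10, 8.54 and 9.21 in naive libraries. The groups overlapped, and naive library 2 was the low one. The differences from naive cultures were 0.12 for primed and 0.21 for non-primed cultures (SE 0.16 each, limma adjusted p = 0.743 and 0.586). Without naive library 2 they were -0.09 and 0.00.

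The promoters of both carriers are shown because Slc25a12 held the only call and Slc25a13, which was not called, is its paralog. The 250 bases before each RefSeq start (GRCm38.p6) run 5′ to 3′ on the gene's strand, with capitals on the core of the HIF binding site, ACGTG or GCGTG on either strand.
Slc25a12, chr2:71367756-71368005, minus strand: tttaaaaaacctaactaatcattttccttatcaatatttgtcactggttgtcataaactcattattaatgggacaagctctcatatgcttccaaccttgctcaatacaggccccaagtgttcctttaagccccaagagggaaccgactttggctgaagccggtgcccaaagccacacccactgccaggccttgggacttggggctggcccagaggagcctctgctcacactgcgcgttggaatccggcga
Slc25a13, chr6:6217174-6217423, minus strand: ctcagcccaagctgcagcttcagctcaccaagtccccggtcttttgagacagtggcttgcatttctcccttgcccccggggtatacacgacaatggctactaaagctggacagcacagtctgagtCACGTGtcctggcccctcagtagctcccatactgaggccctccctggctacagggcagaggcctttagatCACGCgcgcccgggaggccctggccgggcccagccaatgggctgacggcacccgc
The Slc25a12 window held 0 matches. The Slc25a13 window held 3, of which 2 overlap in the palindrome CACGTG. A core was present in 38.6% of 32851 RefSeq promoter windows and in 28 of the 45 windows (62.2%) of the 38 members with an entry. CACGTG was present in 6.02% of all windows and in 5 of 45 member windows (11.1%). The motif TNAAGGTCA of the estrogen-related receptors, searched on both strands, was in 1.14% of all windows and in 0 of 45 member windows. Base composition differs between the pair, with 49.6% GC in the Slc25a12 window and 62.8% in the Slc25a13 window. The shares of windows with a match were not adjusted for base composition, and a gene with several windows counts more than once. A match in a window is a description of its letters and does not show binding.

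The remaining shuttle genes had higher means in both injected groups than in naive cultures, except Slc25a13 and Got1 when naive library 2 was left out. Got2, the mitochondrial aspartate aminotransferase, had 10.61, 10.73 and 10.66 in primed, 10.65, 10.70 and 10.58 in non-primed and 10.55, 10.36 and 10.52 in naive libraries. Both injected groups lay wholly above naive cultures, by 0.19 in primed and 0.17 in non-primed cultures (SE 0.08 each, limma adjusted p = 0.266 and 0.342). Mdh1, the cytosolic malate dehydrogenase, gave 12.60, 12.58 and 12.57 in primed, 12.48, 12.52 and 12.57 in non-primed and 12.51, 12.37 and 12.23 in naive libraries. The primed libraries were all above the naive ones, with a difference of 0.21 (SE 0.08, limma adjusted p = 0.267). Got1, the cytosolic aminotransferase, differed from naive cultures by 0.23 in primed and 0.12 in non-primed cultures, and by 0.02 and -0.09 without naive library 2. The median difference of the 5 shuttle genes from naive cultures was 0.19 in primed and 0.15 in non-primed cultures, and 0.02 and 0.00 without that library.

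**Figure D2:**
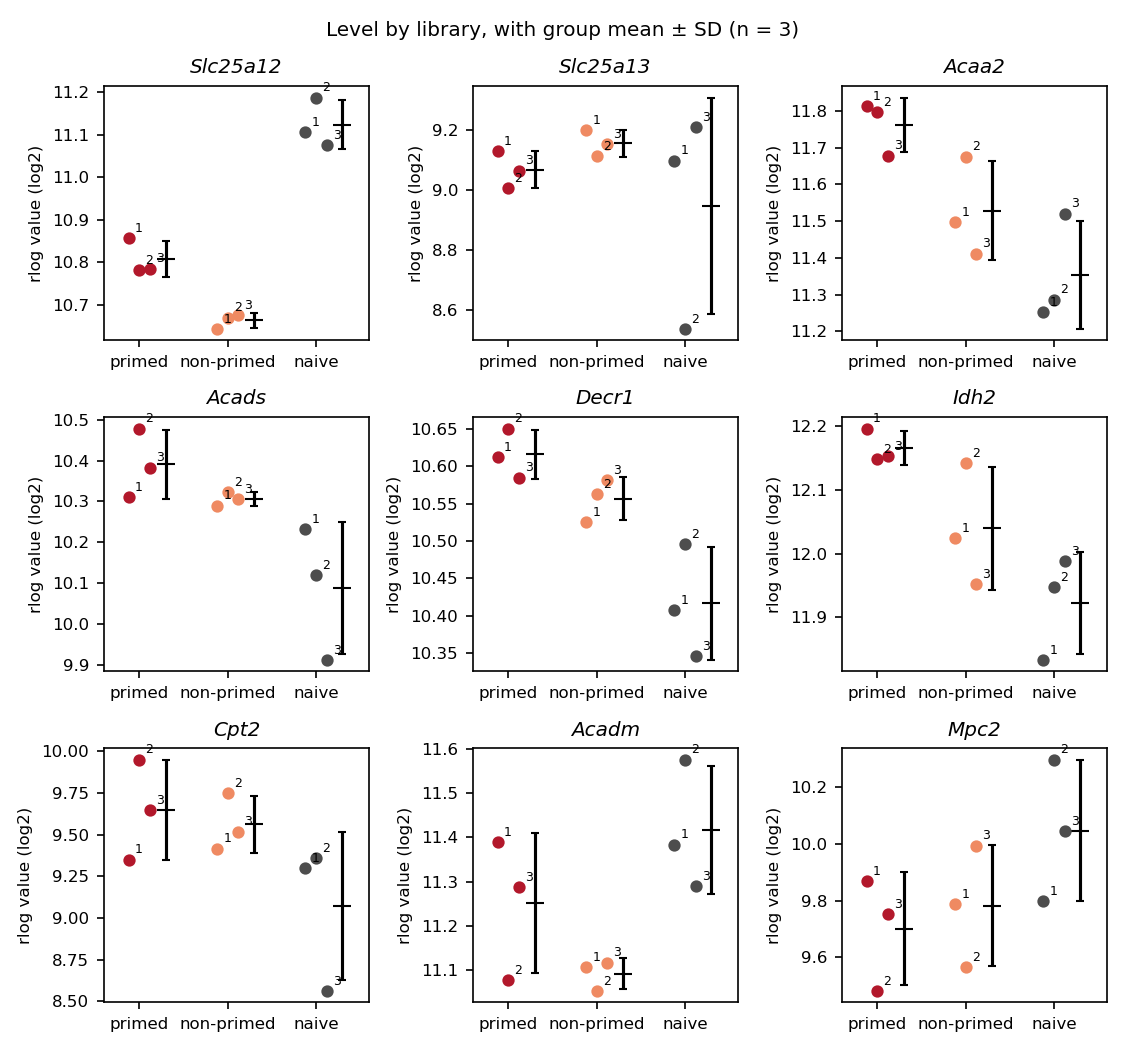
Value of 9 of the genes in each library, on the rlog (log2) scale, with primed in red, non-primed in orange and naive in grey; numbers are replicate numbers, and horizontal ticks with bars are group means ± SD (n = 3). Slc25a12 separates the groups with naive highest, and the single low naive libraries of Slc25a13 (library 2) and Cpt2 (library 3) are visible.

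The genes of pyruvate entry moved in both directions. Of 6, primed was higher than naive for 2 and non-primed was higher for 3, with median differences of -0.01 and 0.00. Mpc2, a subunit of the mitochondrial pyruvate carrier, had 9.87, 9.48 and 9.75 in primed, 9.79, 9.56 and 9.99 in non-primed and 9.80, 10.30 and 10.04 in naive libraries. The groups overlapped, with naive library 2 the highest, and the differences from naive cultures were -0.35 in primed (SE 0.16, limma adjusted p = 0.324) and -0.26 in non-primed cultures (SE 0.16, limma adjusted p = 0.488). Its partner Mpc1 differed by -0.01 and -0.04 and changed sign in several alternatives.

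Pyruvate dehydrogenase was uneven across its subunits. Dlat, the acetyltransferase core, gave 10.40, 10.55 and 10.54 in primed, 10.51, 10.55 and 10.62 in non-primed and 10.30, 10.36 and 10.39 in naive libraries. Every injected-paw library was above every naive one, by 0.15 on average in primed (SE 0.07, limma adjusted p = 0.344) and 0.21 in non-primed cultures (SE 0.07, limma adjusted p = 0.235). The E1 alpha subunit Pdha1, which the pyruvate dehydrogenase kinases phosphorylate, differed by -0.22 in primed and -0.20 in non-primed cultures, and its beta partner Pdhb by -0.01 and 0.04. The E1 genes overlapped between groups.

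Pcx, pyruvate carboxylase, which makes oxaloacetate from pyruvate, had 11.07, 11.01 and 11.01 in primed, 10.91, 10.80 and 10.85 in non-primed and 10.98, 10.89 and 10.50 in naive libraries. Primed lay wholly above both other groups. The difference was 0.24 from naive cultures (SE 0.12, limma adjusted p = 0.343) and 0.18 from non-primed cultures (SE 0.12, limma adjusted p = 1.00).

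The TCA cycle lay close to naive cultures in its median. Its 13 genes had a median difference from naive cultures of 0.03 in primed and 0.02 in non-primed cultures. Primed was higher for 8 of 13 and non-primed for 10 of 13, and 1 gene separated primed from naive libraries, where 8.97% of all tested genes lay wholly above and 8.18% below. Without naive library 2, both groups were higher for 6 of 13 genes, with medians of -0.02 in primed and -0.00 in non-primed cultures. Without non-primed library 2 the non-primed median was -0.01. Naive library 2 also had the lowest proliferation marker mean, 8.96, and the part of proliferation in these values was not tested. The separated gene was Idh2, the mitochondrial NADP-dependent isocitrate dehydrogenase, with 12.20, 12.15 and 12.15 in primed, 12.02, 12.14 and 11.95 in non-primed and 11.83, 11.95 and 11.99 in naive libraries. Primed also lay just above non-primed libraries, and the differences were 0.24 from naive (SE 0.08, limma adjusted p = 0.196) and 0.13 from non-primed cultures (SE 0.08, limma adjusted p = 1.00).

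Citrate synthase (Cs), which opens the cycle, had 10.60, 10.75 and 10.58 in primed, 10.59, 10.92 and 10.44 in non-primed and 10.79, 10.51 and 10.66 in naive libraries. The groups overlapped fully, and the primed difference from naive cultures was -0.01 with a 95% confidence interval of -0.30 to 0.29. The catalytic subunit of the NAD-dependent isocitrate dehydrogenase, Idh3a, differed by -0.20 in primed and -0.12 in non-primed cultures, while its companions Idh3b and Idh3g differed by 0.04 and 0.11 in primed cultures. The oxoglutarate dehydrogenase subunits Ogdh and Dlst differed by 0.15 and 0.01 in primed cultures. Dld, the dehydrogenase subunit that this complex shares with pyruvate dehydrogenase, differed by -0.07. Of the succinyl-CoA ligase genes, Suclg1 differed by 0.11, Suclg2 by 0.03 and Sucla2 by -0.04 in primed cultures. Fumarase (Fh1) and mitochondrial malate dehydrogenase (Mdh2) differed by 0.10 and -0.01. None of these was called.

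Fatty acid oxidation lay highest in primed cultures. Of its 17 genes, 14 were higher in primed than in naive cultures, beside 49.8% of all tested genes, with a median difference of 0.16. For 8 of them the groups did not overlap, all upwards, where 8.97% of all tested genes lay wholly above. Against non-primed cultures, primed was higher for 15 of 17, beside 50.3% of all tested genes, with a median of 0.08 (0.05 without primed library 2). There 4 genes lay wholly above, beside 6.31% of all tested genes. By library, the median of the 17 genes after subtracting each gene's mean was 0.06 to 0.08 in primed, -0.05 to 0.02 in non-primed and -0.04 to -0.03 in naive libraries, so primed lay above the rest and non-primed spanned naive. Non-primed was higher than naive for 12 of 17, with a median of 0.04, and 5 genes lay wholly above and 2 wholly below, beside 11.6% and 10.3% of all tested genes. That median was 0.06 to 0.08 without non-primed library 1 or 3 or naive library 1 or 2. With quantile normalization the primed median over naive cultures was 0.13, with 13 of 17 higher, and leaving out 1 naive library gave 0.09 to 0.17, the lowest without naive library 1. None of the 17 was called in the fit of all 9 libraries, and the adipocyte marker means were 4.27 to 5.07 in primed, 4.22 to 4.39 in non-primed and 4.49 to 6.2 in naive libraries. Skeletal muscle markers, from another tissue of the digested paw, averaged 3.55 to 4.61 in primed, 3.88 to 4.38 in non-primed and 3.45 to 3.65 in naive libraries. Of the 9 muscle markers, 5 were tested and 0 were called, and 4 of the 5 (Acta1, Myh1, Tnnt3 and Des) were higher on average in both injected groups than in naive cultures. All 4 lay wholly above naive libraries in non-primed cultures, beside 11.6% of all tested genes. In primed cultures Acta1 and Myh1 did so, beside 8.97% of all tested genes. Myh1 was at 5.39 to 7.20 in primed, 5.66 to 6.65 in non-primed and 4.35 to 5.27 in naive libraries. Actn3 was wholly lower in both injected groups than in naive cultures. Of the 4 markers below the filter, Ckm and Myod1 were near 0 in all 9 libraries, at -0.15 to 0.03 and 0.09 to 0.36. Myog was at 2.41 to 3.79 in primed, 2.83 to 3.30 in non-primed and 2.37 to 2.46 in naive libraries. Myh4 was at 2.28 to 3.71, 2.58 to 3.13 and 2.18 to 2.43 in the same order. The part of muscle RNA in the fatty acid oxidation values was not tested.

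The last enzyme of the spiral and the trifunctional protein are described first. Acaa2 (ENSMUSG00000036880; chromosome 18, 74779197 to 74806208), the matrix thiolase that releases acetyl-CoA, had 11.81, 11.80 and 11.68 in primed, 11.50, 11.68 and 11.41 in non-primed and 11.25, 11.29 and 11.52 in naive libraries. Primed libraries were above both other groups, while non-primed and naive overlapped. The difference was 0.41 from naive (SE 0.10, 95% confidence interval 0.18 to 0.64, limma adjusted p = 0.141) and 0.23 from non-primed cultures (SE 0.10, unadjusted p = 0.0451, limma adjusted p = 1.00). Without naive library 3 the difference from naive cultures was 0.49 (limma adjusted p = 0.0489), and with sample weights it was 0.41 (limma adjusted p = 0.0411). Hadha, the alpha subunit of the trifunctional protein, gave 11.86, 11.89 and 11.92 in primed, 11.81, 11.93 and 11.83 in non-primed and 11.79, 11.71 and 11.59 in naive libraries. Both injected groups lay above naive cultures, by 0.19 in primed and 0.16 in non-primed cultures (limma adjusted p = 0.256 and 0.365). The beta subunit Hadhb differed by 0.07 in primed and 0.17 in non-primed cultures.

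The acyl-CoA dehydrogenases take the first step and differ in chain length. Acads, for short chains, had 10.31, 10.48 and 10.38 in primed, 10.29, 10.32 and 10.30 in non-primed and 10.23, 10.12 and 9.91 in naive libraries. Both injected groups were above naive cultures, by 0.30 in primed (SE 0.09, limma adjusted p = 0.189) and 0.22 in non-primed cultures (SE 0.09, limma adjusted p = 0.309). Acadm, for medium chains, lay the other way, with 11.39, 11.08 and 11.29 in primed, 11.11, 11.05 and 11.12 in non-primed and 11.38, 11.58 and 11.29 in naive libraries. Non-primed was wholly below naive (difference -0.32, SE 0.10, limma adjusted p = 0.203), and primed overlapped with both. Acadvl, for very long chains, gave 12.67, 12.81 and 12.67 in primed, 12.53, 12.62 and 12.60 in non-primed and 12.61, 12.53 and 12.35 in naive libraries. Primed lay above both other groups, by 0.22 over naive (SE 0.09, limma adjusted p = 0.262) and 0.14 over non-primed cultures. Acadl, for long chains, differed by 0.16 in primed and 0.12 in non-primed cultures.

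Decr1, the dienoyl-CoA reductase needed for unsaturated fatty acids, had 10.61, 10.65 and 10.58 in primed, 10.53, 10.56 and 10.58 in non-primed and 10.41, 10.50 and 10.35 in naive libraries. The groups lay in the order primed, non-primed, naive without overlap, although primed and non-primed libraries nearly met at 10.58, with differences from naive cultures of 0.20 in primed (SE 0.07, limma adjusted p = 0.210) and 0.14 in non-primed cultures (SE 0.07, limma adjusted p = 0.365). The enoyl-CoA isomerase Eci1, which also serves unsaturated chains, gave 9.93, 9.72 and 9.77 in primed, 9.74, 9.55 and 9.77 in non-primed and 9.995, 9.83 and 9.93 in naive libraries. Non-primed was wholly below naive (difference -0.24, SE 0.10, limma adjusted p = 0.287), and the primed difference was -0.11.

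The carnitine steps bring fatty acids into the matrix. Cpt2, which regenerates acyl-CoA in the matrix, had 9.35, 9.95 and 9.65 in primed, 9.42, 9.75 and 9.52 in non-primed and 9.30, 9.36 and 8.56 in naive libraries. Non-primed lay wholly above naive libraries, primed overlapped with them, and naive library 3 was the lowest. Its difference was 0.58 in primed and 0.49 in non-primed cultures (SE 0.23 each, limma adjusted p = 0.264 and 0.359), and 0.32 and 0.23 without naive library 3. Cpt1a, the outer-membrane transferase that malonyl-CoA inhibits, gave 12.25, 12.40 and 12.26 in primed, 12.00, 12.12 and 12.17 in non-primed and 11.86, 12.31 and 12.24 in naive libraries. Primed lay wholly above non-primed (difference 0.20, SE 0.12, limma adjusted p = 1.00), and naive spanned non-primed and overlapped with primed. The carrier Slc25a20 differed by 0.13 in primed and 0.01 in non-primed cultures. The hydratase Echs1 and the hydroxyacyl-CoA dehydrogenase Hadh differed by 0.00 and 0.05 in primed cultures. The genes that pass electrons to ubiquinone, Etfa, Etfb and Etfdh, differed by -0.09, 0.16 and 0.06, with primed libraries wholly above naive ones for Etfb and Etfdh.

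**Figure D3:**
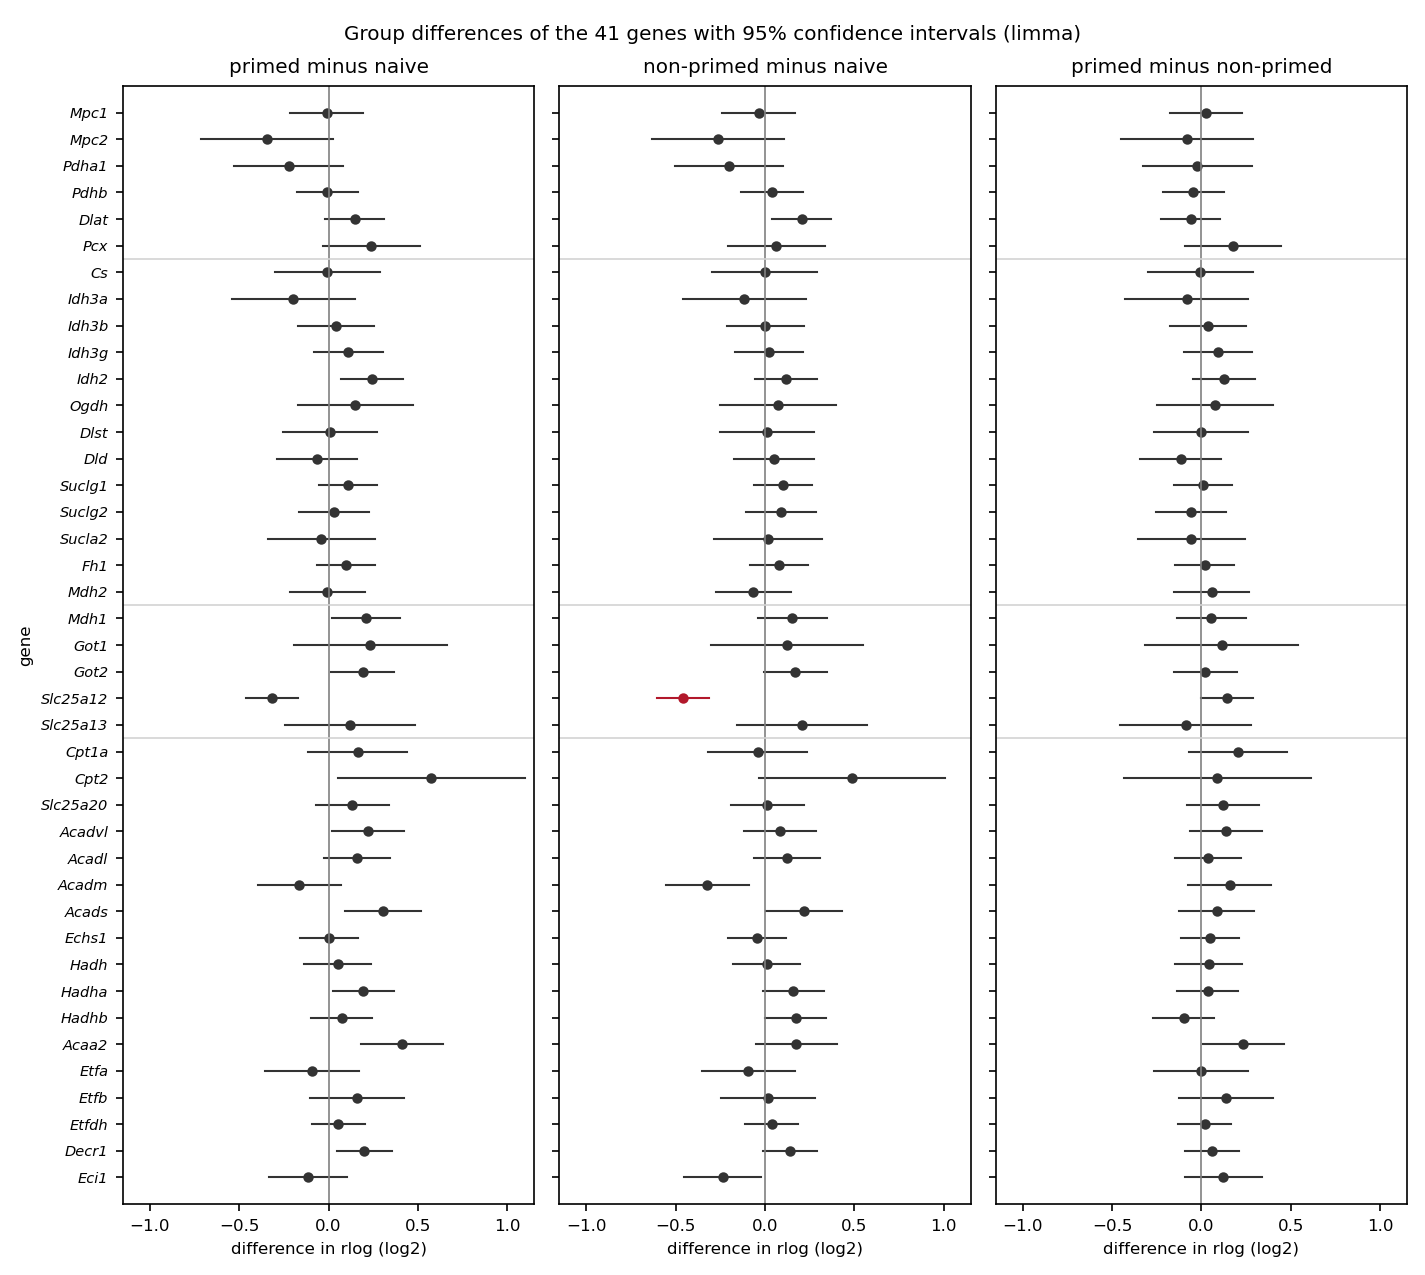
Difference of each of the 41 genes (rows, by role) in 3 panels, primed minus naive, non-primed minus naive and primed minus non-primed, as log2 (rlog) differences with 95% confidence intervals from limma. Red marks the single difference past the threshold, Slc25a12 in non-primed against naive cultures, and the widest intervals belong to Cpt2.

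Levels can be compared between genes only per length. Taking the rlog value minus log2 of the length in kb of the principal transcript, the 41 genes spanned 7.41 to 11.48. The highest were Acadvl at 11.48, Pdha1 at 11.42, Mdh1 at 11.41 and Idh2 at 11.24, and the lowest were Slc25a13 at 7.41, Cpt2 at 8.18 and Slc25a12 at 8.20. Of 40 neighbouring pairs in this order, 34 were closer than the larger SD of both genes over the 9 libraries. Both aspartate-glutamate carriers were therefore among the 3 lowest members per length.

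The members, like all tested genes, varied most in naive cultures. The median SD of the members was 0.07 in primed, 0.07 in non-primed and 0.13 in naive cultures, beside 0.14, 0.10 and 0.22 over all tested genes. Naive cultures had the largest SD for 29 of 41 genes. Naive library 3 was the highest or lowest library in 20 cases and naive library 2 in 17, which are 24.4% and 20.7% of the members' extremes, beside 25.8% and 19.6% for all tested genes. Exons of 8 members overlap a tested gene on the opposite strand, the longest being Acadvl with Dvl2 (1151 bases) and Pdha1 with Map3k15 (603 bases). The strand setting of the counting is not given in the sources used here, so reads in those stretches may come from either gene.

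**Figure D4:**
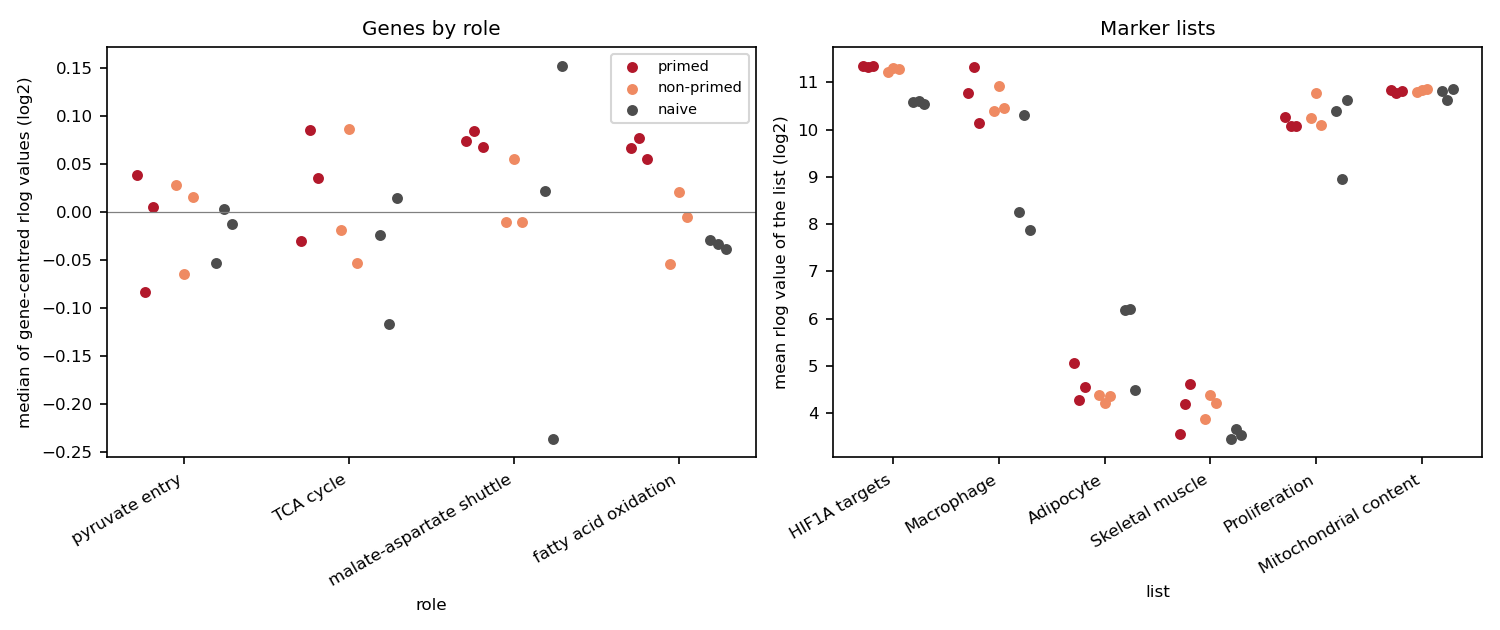
Each point is 1 library (primed red, non-primed orange, naive grey): left, the median over each role's genes of the rlog value minus the gene's mean over the 9 libraries (log2); right, the mean rlog value of each marker list (log2). The medians of fatty acid oxidation are higher in all primed libraries than in the others, although many of its genes overlap between groups. HIF1A targets separate naive from injected-paw libraries, and the lowest macrophage means, 8.25 and 7.87, are naive.

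A wider list of 61 genes of the same pathways (kinases and phosphatases of pyruvate dehydrogenase, succinate dehydrogenase, acyl-CoA synthetases, lipid regulators and others) had 60 tested members, with Cpt1b below the filter on low values. It was chosen with results of these data known. Between non-primed and naive cultures, 1 of 60 was called, Pdk1, beside 0.141% of all tested genes. Between primed and naive cultures 0 of 60 were called, beside 0.102%, and between primed and non-primed cultures 0 of 60, beside 0%. Primed was higher than naive for 41 of 60, beside 49.8% of all tested genes, and non-primed for 32 of 60, beside 51.7%.

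Pdk1, a kinase that phosphorylates and inactivates pyruvate dehydrogenase and is itself a HIF1A target, had 12.03, 11.85 and 12.13 in primed, 12.01, 12.02 and 12.10 in non-primed and 11.28, 11.46 and 11.29 in naive libraries. The injected groups lay wholly above naive cultures, by 0.70 in non-primed (SE 0.09, limma adjusted p = 0.0435) and 0.66 in primed cultures (SE 0.09, limma adjusted p = 0.0519). Over the 15 alternatives the adjusted p of the non-primed difference was 0.0114 to 0.263. The call held with sample weights and without primed library 1 or any 1 naive library, and was lost in the other 10, including the replicate block (adjusted p = 0.0647). The primed difference passed with sample weights and without naive library 2 or 3. The opposing phosphatase Pdp1 gave 11.60, 11.60 and 11.80 in primed, 11.57, 11.62 and 11.67 in non-primed and 10.82, 11.09 and 11.34 in naive libraries. Both injected groups were again above naive cultures, by 0.58 in primed (SE 0.13, limma adjusted p = 0.111) and 0.53 in non-primed cultures (SE 0.13, limma adjusted p = 0.132).

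Acacb, the acetyl-CoA carboxylase that makes malonyl-CoA at the mitochondrion, had 9.19, 9.16 and 9.10 in primed, 8.95, 8.93 and 8.93 in non-primed and 9.45, 9.65 and 9.43 in naive libraries. It kept the order of Slc25a12, with naive highest and non-primed lowest, and did not overlap in any pair. Its differences from naive cultures were -0.37 in primed (SE 0.09, limma adjusted p = 0.134) and -0.57 in non-primed cultures (SE 0.09, limma adjusted p = 0.0583), and it differed by 0.21 between primed and non-primed cultures. Acsl4, an acyl-CoA synthetase for polyunsaturated fatty acids, differed by -0.43 between primed and naive cultures (SE 0.10, limma adjusted p = 0.128). Among the genes with the smallest p between primed and non-primed cultures, Sirt3, a mitochondrial deacetylase, differed by 0.25 (limma adjusted p = 1.00).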

How the data were processed

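The authors deposited 1 table of rlog values, a log2 scale that DESeq2 makes from counts, for 9 libraries. Per the submitters' processing notes, tools included cutadapt 2.5, STAR 2.5.4a, Subread 1.6.1 with featureCounts, and DESeq2, on GRCm38. The sources used here do not give the annotation release, strand setting or rlog options. Columns were matched to groups by their labels.

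From the deposited log2 values, genes that varied and had a mean of at least 3 (15623) were fitted with limma 3.58.1 in R 4.3.3 (all 9 libraries, variance trend, no block), with p-values adjusted over all of them. The fitting step was tested on simulated data with known differences. Most of these were larger than those of the members, so the test does not show the power at the sizes reported here. Depth is unknown, so no counting interval is given. With 3 libraries against 3, an exact permutation test of 1 gene cannot go below p = 0.1, so only the fit across all genes was used.

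The members and lists were chosen with earlier results of these data known. Named were members past the threshold, members without overlap and those of each role; for the wider list, genes past the threshold or, where none passed, the 2 with the smallest p in each direction (1 of these is not reported here); Acadm, Cs and the remaining named members were given to account for every gene. Same-numbered primed and non-primed libraries deviated together over genes for numbers 1 and 2 (correlations 0.418 and 0.608), so those numbers may mark a pairing. For number 3 the correlation was 0.10, below the 0.275 of primed library 1 with non-primed library 3. Naive libraries showed no such pattern. The alternatives were no filter, no variance trend, 2 groups fitted alone, quantile normalization, sample weights, a replicate block and leaving out each library. Gene positions come from GENCODE M21.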

Additional observations from a re-analysis of the deposited data

How the results depend on the processing

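Counts over all tested genes, the differences of the members and their roles, and those of Pdk1 were recomputed under 15 alternatives. No alternatives are given for the other genes of the marker lists and of the wider list. The same holds for the counts of genes without overlap and the test for any difference among the groups. For non-primed against naive cultures, the 22 called genes became 0 without the filter on low values, 5 without the variance trend, 7 with the 2 groups fitted alone and 621 with sample weights, and 0 to 355 when 1 library was left out (355 without naive library 2, 266 without naive library 3 and 0 without primed library 2 or any 1 non-primed library). For primed against naive cultures, the 16 called genes became 0 without the filter, 0 without the trend, 0 with the 2 groups alone, 51 with the replicate block and 733 with sample weights, and 0 to 356 when 1 library was left out. For primed against non-primed cultures, 0 became 2109 with sample weights and 0 to 0 with 1 library left out. The weights gave naive library 3 a weight of 0.133 and non-primed library 1 a weight of 10.4.

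Among the 41 genes, the 1 call in non-primed against naive cultures became 0 without the filter, without the trend, with the 2 groups alone, with quantile normalization and with the replicate block, and 0 to 1 with 1 library left out; the adjusted p of Slc25a12 was 0.0854, 0.0897, 0.122, 0.0528 and 0.0782 in these 5 fits, and 0.0095 with sample weights. For primed against naive cultures, 0 became 2 of 41 with sample weights (Slc25a12 and Acaa2), beside 733 of 15623 tested genes. With 1 library left out it was 0 to 2, and the 2 without naive library 3 stood beside 196 of 15634 tested genes. For primed against non-primed cultures, 0 became 7 of 41 with sample weights, beside 2109 of 15623 tested genes. The median difference of the members was then 0.0801 in place of 0.0391. With 1 library left out, the members' median difference spanned 0.0385 to 0.0767 for non-primed against naive, 0.0665 to 0.0960 for primed against naive and 0.03 to 0.06 for primed against non-primed cultures. The replicate block changed no other call among the members.

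Mpc1 reversed with sample weights, at 0.0350 in non-primed and 0.0284 in primed against naive cultures and -0.00658 in primed against non-primed cultures. With 1 library left out, Mpc1 spanned -0.0746 to 0.0338, -0.0495 to 0.0590 and -0.0102 to 0.0525 in these comparisons, Slc25a13 spanned -0.0860 to 0.25 in primed against naive cultures, and Mpc2 -0.19 to 0.0286 in primed against non-primed cultures. The sign held in all 15 alternatives for 23 of 41 genes in non-primed against naive, 27 in primed against naive and 26 in primed against non-primed cultures. The cause of these changes was not tested.

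Depth and the number of reads per gene are not known from rlog values, groups of 3 give 6 residual degrees of freedom, and priming cannot be told apart from paw side.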
